A study of Homo sapiens with 6 samples.

Results

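The genes described here set the timing of cell division through the cyclin-dependent kinases (CDKs). They are the CDC25 phosphatases CDC25A, CDC25B and CDC25C, the cyclins CCND1, CCND3, CCNE1 and CCNB1, the kinase WEE1 and the kinase CDK4. A CDK works only with a cyclin bound to it. WEE1 holds CDK1 and CDK2 inactive by adding an inhibitory phosphate, and CDC25 phosphatases remove that phosphate. D-type cyclins pair with CDK4 early in G1, cyclin E1 pairs with CDK2 at entry into S phase, and cyclin B1 pairs with CDK1 for mitosis. CDC25 transcripts are spliced into several forms, which differ mainly in the N-terminal regulatory region of the protein.

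The 9 genes were chosen by name, with earlier results of these data known. Every splicing event of theirs with a mean of at least 10 junction reads over the 6 libraries was taken. This gave 65 events of 67 rows, out of 66396 events tested in all. The highest mean among the rows left out was 5.33 reads (an alternative 3′ site of CCNE1), and the lowest among those kept was 11.5 reads (a CDC25C event). The members were 47 skipped exons (SE, over 36 distinct exons), 12 pairs listed as mutually exclusive exons (MXE), 5 alternative 3′ sites (A3SS) and 1 alternative 5′ site (A5SS). None was a retained intron. Events that share an exon or a junction share reads and are not independent. Because the genes were chosen with earlier results known, member shares given beside those of all events or genes are description only.

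NCI-H1975 is an established human lung adenocarcinoma cell line. The cells were transfected with the PCDNA3.1-SAM68 plasmid (SAM68 group, 3 libraries) or with the empty PCDNA3.1 plasmid (control group, 3 libraries), at 2 µg per well in both groups, and were harvested after 48 h. SAM68, encoded by KHDRBS1, is an RNA-binding protein of the STAR family that takes part in splice site choice. The plasmid was given to a single line, and cells that took it up and cells that did not were measured together.

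The question was whether a higher SAM68 level went with other splice forms or other amounts of these cell cycle transcripts. Summed over the rows of the skipped exon table, in which a junction read can stand in several rows, the counts came to 16951876 to 19737729 per library. With each gene represented by its most-read event alone, they came to 5449695 to 6337736 per library. KHDRBS1 stood at 311 to 328 junction reads per 1000000 (rpm) in control and at 1230 to 1276 rpm in SAM68, a log2 fold change of 1.98 (SE 0.047). Of 12 epithelial markers, 5 were listed in the tables. KRT18 stood at 471 to 492 rpm in control and at 521 to 530 rpm in SAM68, without overlap (log2 fold change 0.12, adjusted p = 0.305), whereas NAPSA, a marker of lung adenocarcinoma, reached at most 0.918 rpm. KRT7 stood at 3.02 to 4.48 rpm in control and at 1.26 to 2.20 rpm in SAM68, without overlap (log2 fold change -0.89, adjusted p = 0.383), and MUC1 at 1.47 to 4.58 rpm over all libraries. KRT8 was at 520 rpm in the first control library and at 230 to 253 rpm in the other 5. None of 11 fibroblast, immune and endothelial markers was listed. The tables hold only genes with an alternative event, so that a marker that is not listed was not measured.

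CDC25C held the largest changes in splicing among the 9 genes. Its exon 3 is 95 nt long and lies in the coding sequence, on the minus strand of chr5:138329553-138329647 (GRCh38). The annotated transcript CDC25C-202 lacks exons 3, 5 and 6, of 95, 34 and 90 nt. These 3 exons are shown because the CDC25C values given next rest on reads that include them or leave them out. Capitals mark the exon, and lower case marks 12 nt of intron on each side, 5′ to 3′ on the transcribed strand. Exon 5 lies at chr5:138326021-138326054 and exon 6 at chr5:138325815-138325904.
CDC25C exon 3: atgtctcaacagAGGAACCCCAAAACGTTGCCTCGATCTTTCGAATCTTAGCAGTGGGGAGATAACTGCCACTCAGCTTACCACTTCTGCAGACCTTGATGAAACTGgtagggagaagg
CDC25C exon 5: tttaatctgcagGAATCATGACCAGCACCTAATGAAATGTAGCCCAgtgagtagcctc
CDC25C exon 6: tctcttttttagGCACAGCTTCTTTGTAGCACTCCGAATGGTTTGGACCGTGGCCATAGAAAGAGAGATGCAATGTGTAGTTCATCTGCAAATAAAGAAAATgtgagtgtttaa

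The reads that told the forms apart crossed the following junctions. Each line gives the last 15 nt of the upstream exon in lower case and the first 15 nt of the downstream exon in capitals. Exon 4 is joined either to exon 3 or directly to exon 2, and exon 7 either to exon 6 or directly to exon 4.
CDC25C exon 2 to exon 3: aagcattttgtctggAGGAACCCCAAAACG
CDC25C exon 3 to exon 4: accttgatgaaactgGTCACCTGGATTCTT
CDC25C exon 2 to exon 4: aagcattttgtctggGTCACCTGGATTCTT
CDC25C exon 6 to exon 7: gcaaataaagaaaatGACAATGGAAACTTG
CDC25C exon 4 to exon 7: gcatttagctgggatGACAATGGAAACTTG

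Neither the length of exon 3 nor the joint length of exons 5 and 6 (124 nt) is a multiple of 3. Together the 3 exons hold 219 nt, or 73 codons. The canonical transcript CDC25C-201 has 473 codons and CDC25C-202 has 400, from the same start codon in exon 2. Without exon 3 alone, the 46 nt of exon 4 are therefore read in another frame, and the loss of exons 5 and 6 brings the frame back at exon 7. These exons encode part of the N-terminal regulatory region, upstream of the catalytic domain.

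Exon 3 of CDC25C was included more often in the SAM68 libraries. The percent spliced in (PSI), which is the share of transcripts that hold the exon after division of the reads by the effective length of each form, was 80.0%, 63.2% and 62.7% in control and 93.4%, 92.3% and 98.0% in SAM68. The groups did not overlap. The means were 68.6% ± 9.86 in control and 94.6% ± 3.01 in SAM68 (SD of 3 libraries each). The change in PSI (∆PSI, SAM68 minus control) was 25.9 percentage points. Its adjusted p was 0.0192 in the quasi-binomial test, adjusted over the 47450 skipped exon events tested.

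It was the only event of the 9 genes that was called (adjusted p under 0.05 and an absolute ∆PSI of at least 10 points). Over all 66396 events, 0.0934% were called. An exact permutation test over the 6 libraries gave p = 0.1, two-sided, which is the smallest p that 3 against 3 libraries allow. The call was lost with the spread of the event's own libraries (adjusted p = 0.692) and when logit PSI was fitted with limma (adjusted p = 0.896), fits that called 2 and 3 of all events. Without the first control library, which had the highest control PSI, the adjusted p was 0.0119. It was 0.157 without the second control library and 0.148 without the third. Without the first, the second or the third SAM68 library it was 0.0930, 0.0553 or 0.175, so that 5 of the 6 fits lost the call while ∆PSI stayed between 23.0 and 31.6 points.

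The counts of both forms of exon 3 differed between the groups. Reads over the skipping junction, exon 2 to exon 4, numbered 10, 21 and 20 in control and 4, 4 and 1 in SAM68. Reads over the inclusion junctions numbered 69, 62 and 58 in control and 97, 83 and 84 in SAM68. Scaled to depth, the skipping junction stood at 2.80 ± 0.935 rpm in control and at 0.516 ± 0.293 rpm in SAM68 (SD of 3 libraries each), a ratio of 0.184. The inclusion junctions stood at 10.5 ± 1.22 rpm and 15.3 ± 0.0895 rpm, a ratio of 1.46. In each case the lowest library of the higher group lay above the highest library of the other.

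**Figure D1:**
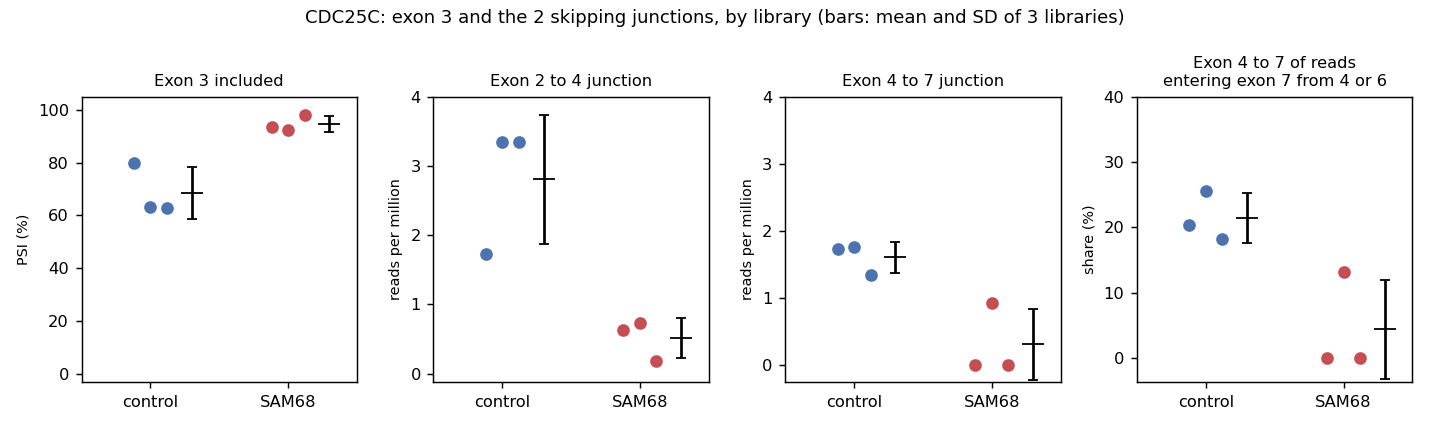
CDC25C by library, with 1 point per library and the mean and SD of 3 libraries per group beside them. From left to right the panels show PSI of exon 3 in percent, rpm of the exon 2 to 4 junction, rpm of the exon 4 to 7 junction, and the share of the exon 4 to 7 junction among reads that enter exon 7 from exon 4 or exon 6; the groups do not overlap in any panel.

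The other skipping junction of CDC25C-202, exon 4 to exon 7, was also read less often in the SAM68 libraries. It had 10, 11 and 8 reads in control and 0, 5 and 0 in SAM68. The row that tests exon 5 between exons 4 and 7 sets this junction against the exon 4 to 5 junction. The latter had 8, 10 and 8 reads in control and 10, 19 and 8 in SAM68. PSI of exon 5 in this row was 39.0%, 42.0% and 44.4% in control and 100%, 75.2% and 100% in SAM68. The ∆PSI of 49.9 points was the largest among the 65 events, but the row rests on 8 to 24 reads per library and was not called (adjusted p = 0.492). With a likelihood ratio test on pooled counts, which leaves out the spread between libraries, the adjusted p was 0.00164. Another row for exon 5, between exons 4 and 8, went the other way, on 8 to 21 reads per library. Its PSI was 95.5% in control and 89.4% in SAM68, a ∆PSI of -6.05 points (adjusted p = 0.726). When the counts of both rows for this exon were summed, ∆PSI fell to 32.1 points.

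Sums and differences of the rows gave the reads of the neighbouring junctions one by one. This reading was chosen after the values were seen. The exon 5 to 6 junction had 30, 33 and 32 reads in control and 44, 31 and 27 in SAM68. The row that tests exon 5 between exons 4 and 7 does not count these reads, so that its PSI leaves them out. The exon 6 to 7 junction had 39, 32 and 36 reads in control and 38, 33 and 57 in SAM68. Of the reads that entered exon 7 from exon 4 or exon 6, those from exon 4 made up 20.4%, 25.6% and 18.2% in control, and 13.2% in the second SAM68 library. In the first and the third SAM68 libraries they were 0 of 38 and 0 of 57 reads, which allows shares of up to 7.89% and 5.26%. The means were 21.4% ± 3.80 and 4.39% ± 7.60 (SD of 3 libraries each). The difference was -17.0 points, with p = 0.1 in the exact permutation test, two-sided. Over pooled reads the shares were 29 of 136 (Wilson 95% interval 15.3% to 28.9%) and 5 of 133 (1.62% to 8.50%). No read joined exon 5 directly to exon 7 in any library, although the annotated transcript CDC25C-208 has this junction.

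**Figure D2:**
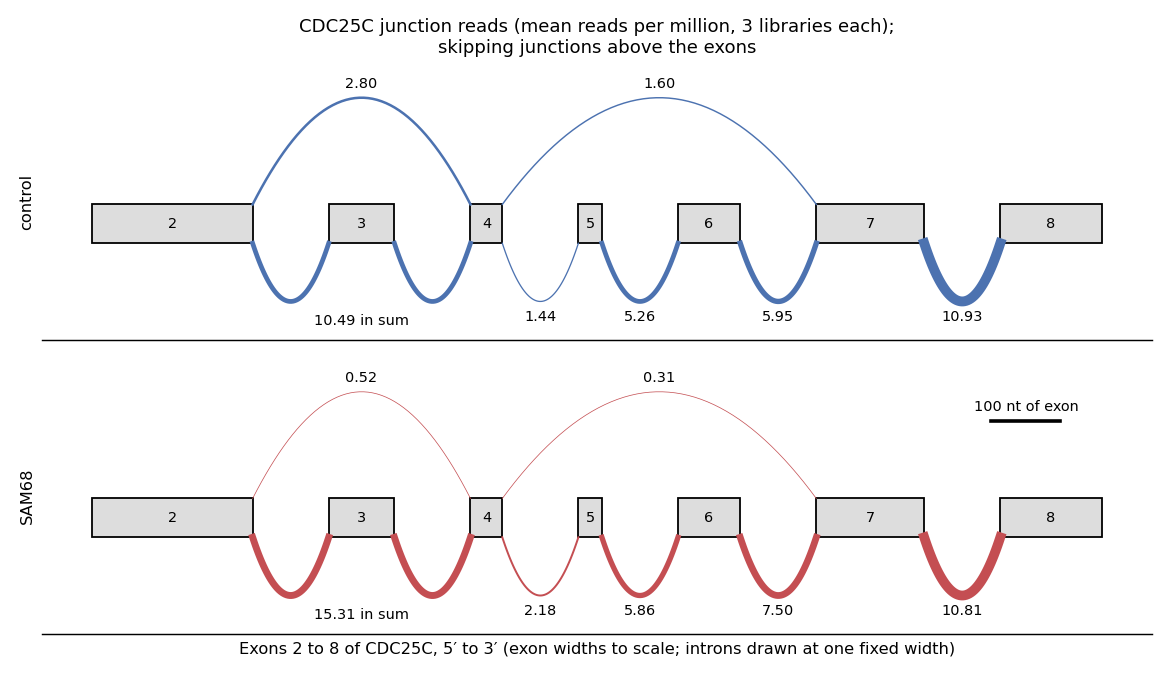
Exons 2 to 8 of CDC25C with the mean rpm of each junction over the 3 control libraries (top, blue) and the 3 SAM68 libraries (bottom, red); exon widths are to scale, introns are not, line width grows with rpm, and the exon 3 inclusion junctions, which are counted in sum, are drawn at equal width. The junctions that skip exon 3 and exons 5 and 6, drawn above the exons, stand at 2.80 and 1.60 rpm in control and at 0.52 and 0.31 rpm in SAM68, while the exon 7 to 8 junction stands at 10.93 and 10.81 rpm.

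The exon 2 to 4 and exon 4 to 7 junctions thus stood lower in each SAM68 library than in each control library. They are counted from different reads, and whether single transcripts carry both was not measured. For the gene as a whole, the exon 7 to 8 junction, which both forms share, had 51, 93 and 55 reads in control and 95, 44 and 51 in SAM68. The most-read event of the gene, exon 9, was at 17.5 to 20.7 rpm in control and at 19.6 to 22.2 rpm in SAM68. Its log2 fold change was 0.13 (SE 0.16, adjusted p = 0.793), and the groups overlapped. In bulk RNA, fewer cells in the cycle phase that uses a transcript and less of it per cell cannot be told apart, which holds for all amounts given here.

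The other 13 CDC25C events were not called. The row that pairs exons 9 and 10 had a ∆PSI of -11.3 points (adjusted p = 0.761). PSI of exon 9 against exon 10 was 55.5%, 59.1% and 67.7% in control and 53.2%, 46.9% and 48.4% in SAM68, without overlap. This row does not compare exclusive exons. As skipped exons, exon 9 was included in 94.5% (control) and 92.2% (SAM68) and exon 10 in 97.0% and 96.6% of transcripts. Exon 7 was skipped in 0 reads in control and in 4, 0 and 1 reads in SAM68 when joined from exon 6 to exon 8 (adjusted p = 0.699). A 5′ site that lengthens exon 10 by 21 nt was used in 3 reads of the first SAM68 library and in none of the others.

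Among all 65 events, 6 (9.23%) had an unadjusted p under 0.05, against 5.95% of all events. An absolute ∆PSI of at least 10 points was reached by 4 members, against 7.17% of all events. PSI did not overlap between the groups in 7 events (10.8%), against 6.45% of all events, and 4 of the 7 are the CDC25C rows for exons 3, 5 and the pairs of exons 9 and 10, 2 are WEE1 rows and 1 is a CDK4 row. The median absolute ∆PSI was 1.89 points for the members and 1.24 points for all events. ∆PSI was above 0 in 32 events and below 0 in 33. In 31 of the 47 skipped exon events, PSI was over 95% in both groups.

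**Figure D3:**
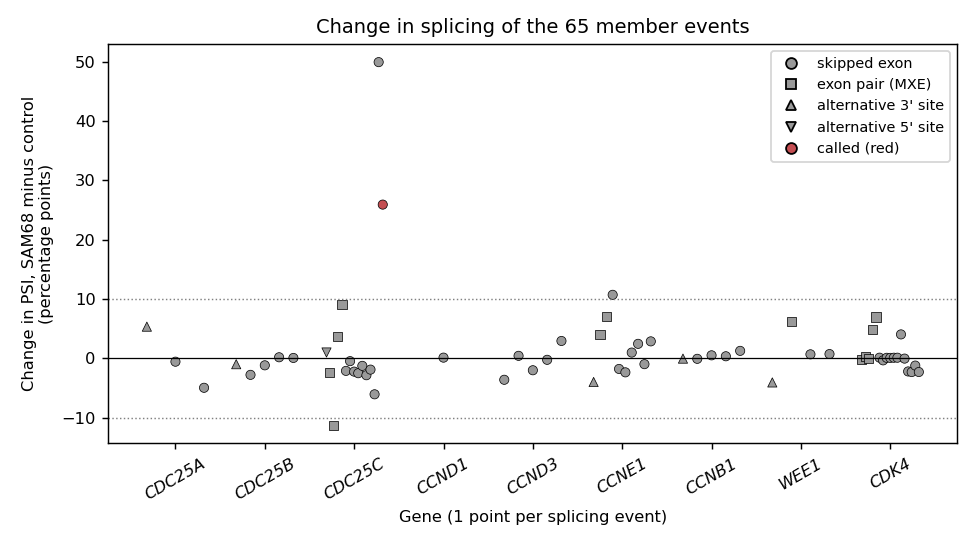
Change in PSI (SAM68 minus control, in percentage points) of each of the 65 events, by gene; the marker shape gives the type of event, red marks a called event and dotted lines mark 10 points on either side of 0. Only CDC25C exon 3 (25.9 points) is called, and 55 of the 65 events lie within 5 points of 0.

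CDC25A, which drives entry into S phase, had 3 events tested, and none was called. The exons shown for CDC25A and CDC25B are the annotated coding exons with the most skipping reads in each gene, with the exon in capitals and 12 nt of intron on each side. Exon 6 of CDC25A (120 nt, chr3:48180721-48180840, minus strand) and exon 4 of CDC25B (42 nt, chr20:3800288-3800329, plus strand) are coding and hold whole numbers of codons.
CDC25A exon 6: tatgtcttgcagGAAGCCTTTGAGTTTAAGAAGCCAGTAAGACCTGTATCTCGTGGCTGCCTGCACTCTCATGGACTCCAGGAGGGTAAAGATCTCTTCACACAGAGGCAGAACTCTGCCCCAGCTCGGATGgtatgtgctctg
CDC25B exon 4: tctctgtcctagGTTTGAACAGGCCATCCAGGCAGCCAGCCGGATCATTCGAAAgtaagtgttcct

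Exon 6 of CDC25A was included in 98.4%, 93.9% and 100% of transcripts in control and in 91.3%, 91.9% and 94.2% in SAM68. The skipping reads behind these values were 1, 5 and 0 in control and 9, 6 and 4 in SAM68. The groups overlapped by the second control library, and the ∆PSI of -4.95 points was not called (adjusted p = 0.699). This exon is also the most-read event of CDC25A. Its reads stood at 24.2 ± 4.06 rpm in control and 26.2 ± 3.38 rpm in SAM68 (SD of 3 libraries each), a log2 fold change of 0.12 (SE 0.16, adjusted p = 0.803).

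Exon 5 of CDC25A starts at either of a pair of 3′ sites that lie 3 nt apart. The window chr3:48183016-48183050 (minus strand) ends the intron in lower case, gives the optional 3 nt in capitals and goes on with the exon.
CDC25A start of exon 5: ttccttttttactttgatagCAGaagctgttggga
The upstream site, which adds 1 codon, was used in 58.8%, 63.5% and 64.8% of transcripts in control and in 72.1%, 75.0% and 56.0% in SAM68. The third SAM68 library lay below all control libraries, and ∆PSI was 5.35 points (adjusted p = 0.805).

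CDC25B, which acts at the entry into mitosis, had 5 events tested, with ∆PSI between -2.77 and 0.19 points, and none was called. Exon 4 was included in 85.9%, 86.0% and 82.5% of transcripts in control and in 81.7%, 79.1% and 85.4% in SAM68 (adjusted p = 0.699). Exon 6 was included in 97.7% ± 0.490 in control and 96.5% ± 1.62 in SAM68 (SD of 3 libraries each, adjusted p = 0.699). A 79-nt exon between exons 11 and 12 that the canonical transcript lacks was included in 0.785% ± 0.782 in control and 0.976% ± 0.495 in SAM68 (SD of 3 libraries each). The most-read event, exon 15, was included in nearly all reads, with a single skipping read in the 6 libraries. Its reads stood at 124, 128 and 126 rpm in control and at 114, 119 and 115 rpm in SAM68. The SAM68 libraries were all below the control libraries, but the log2 fold change of -0.11 (SE 0.075) had an adjusted p of 0.577.

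Cyclin D1 and cyclin D3 bind and activate CDK4. CCND1 had a single event, exon 2, which was skipped in 2 reads of the first control library and in none of the others, where 899 to 1180 reads per library covered the event. CCND3 had 5 events, and 1 of them, exon 4, had an unadjusted p under 0.05. It is 137 nt long, coding, and not a multiple of 3 (chr6:41936559-41936695, minus strand), and it is shown as the CCND3 exon with the smallest p, with the exon in capitals.
CCND3 exon 4: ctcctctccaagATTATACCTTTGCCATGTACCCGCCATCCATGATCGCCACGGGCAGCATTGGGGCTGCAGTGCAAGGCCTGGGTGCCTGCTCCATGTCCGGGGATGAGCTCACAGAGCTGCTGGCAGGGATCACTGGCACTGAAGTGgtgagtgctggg
Inclusion of CCND3 exon 4 was 91.6%, 94.3% and 91.7% in control and 88.3%, 91.9% and 86.6% in SAM68. The second SAM68 library lay within the control range. Skipping reads numbered 27, 23 and 27 in control and 49, 31 and 45 in SAM68. The ∆PSI of -3.61 points did not pass the test over all skipped exon events (adjusted p = 0.699), and without division by effective length it was -1.99 points.

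Cyclin E1 had 10 events tested and none was called. The largest ∆PSI was that of exon 2, which is 47 nt long and holds the start codon (chr19:29812532-29812578, plus strand). It was included in 48.6%, 77.1% and 72.2% of transcripts in control and in 70.6%, 67.0% and 92.5% in SAM68. The ∆PSI of 10.7 points was smaller than the spread within the groups (SD 15.2 and 13.8 points, adjusted p = 0.699). Without 1 library at a time it ranged from 2.04 points (without the first control library) to 16.3 points (without the second), and it was 2.82 points without the third SAM68 library and 15.6 points without the second. None of these fits called it. Exon 4 of CCNE1 also has a pair of 3′ sites, 9 nt apart, shown at chr19:29812949-29812989 with the optional 9 nt in capitals.
CCNE1 start of exon 4: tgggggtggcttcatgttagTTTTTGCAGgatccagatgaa
The upstream site was used in 89.4% ± 1.74 of transcripts in control and 85.4% ± 10.2 in SAM68 (SD of 3 libraries each). The amount of CCNE1 reads depended on the event that stood for the gene. Its most-read event, exon 7, had a log2 fold change of 0.13 (SE 0.19, adjusted p = 0.833), and the sum over all events had -0.44 (adjusted p = 0.0991).

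Cyclin B1, the mitotic partner of CDK1, had 5 events, which were covered by 198 to 2094 reads per library and lay within 1.27 points of 0. Exon 5, its most-read event, was included in 98.8% ± 0.566 of transcripts in control and in 99.3% ± 0.172 in SAM68 (SD of 3 libraries each). The reads stood at 324, 333 and 320 rpm in control and at 312, 302 and 290 rpm in SAM68. They were lower in each SAM68 library, and the log2 fold change of -0.11 (SE 0.057, adjusted p = 0.433) was not called.

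WEE1, which opposes the CDC25 phosphatases, had 4 events and none was called. Exons 4 and 5 were each skipped in 1 read of the second control library and in no read of the other 5. In 2 rows the groups did not overlap. The longer form of exon 9 was used in 97.5%, 100% and 100% in control and in 96.7%, 91.5% and 97.2% in SAM68 (adjusted p = 0.805). The row that pairs exons 4 and 5 had a ∆PSI of 6.21 points (adjusted p = 0.891). Reads of the most-read event, exon 4, stood at 18.6 ± 4.05 rpm in control and 17.5 ± 2.67 rpm in SAM68 (SD of 3 libraries each).

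CDK4, the G1 kinase bound by D-type cyclins, had 17 events tested, at up to 3318 reads per library. A row that pairs exons 3 and 4 as exclusive had an adjusted p of 0.00206, with a ∆PSI of 6.97 points, below the limit of 10 points for a call. With CDC25C exon 3 it made 2 members at an adjusted p under 0.05, a level that 0.259% of all events reached. PSI of exon 3 against exon 4 was 53.9%, 54.0% and 58.3% in control and 62.1%, 58.1% and 66.9% in SAM68. The second SAM68 library lay just below the third control library. Without 1 library at a time, ∆PSI ranged from 4.70 to 9.10 points. The adjusted p was then 0.325 without the third SAM68 library, 0.0591 without the first control library and 0.0545 without the second, and it was 0.0191 without the first SAM68 library, 0.000546 without the third control library and 8.4e-05 without the second SAM68 library. It was 0.895 with the spread of the event's own libraries and 0.873 when logit PSI was fitted with limma. Exons 4 and 5 gave a similar row (∆PSI 4.92 points, adjusted p = 0.103). Its ∆PSI fell to 2.98 points without the second SAM68 library (adjusted p = 0.69). It rose to 6.45 points without the first SAM68 library (adjusted p = 0.0234).

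The exons of these rows were mostly included together. As a skipped exon between exons 2 and 4, exon 3 of CDK4 was included in 100% (control) and 99.97% (SAM68) of transcripts. In a thinner row that runs from exon 1 to exon 5, with 46 to 92 reads per library, it was included in 95.2% and 99.3%, with 4 skipping reads in the second control library and 1 in the first SAM68 library. Exon 4 was included in 99.8% and 99.9%. The rows therefore mostly compare reads over junctions that the same transcripts share. The exon 2 to 3 junction had 152, 149 and 168 rpm in control and 189, 183 and 182 rpm in SAM68, and the exon 3 to 4 junction had 163, 168 and 157 rpm in control and 177, 204 and 176 rpm in SAM68. Both stood higher in each SAM68 library. The exon 4 to 5 junction had 131, 127 and 120 rpm in control and 116, 132 and 90.1 rpm in SAM68, and the exon 5 to 6 junction had 156, 132 and 125 rpm in control and 138, 119 and 126 rpm in SAM68, with overlap in both. Why the junctions differed was not tested. Over all tested MXE rows the median ∆PSI was -0.18 points.

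**Figure D4:**
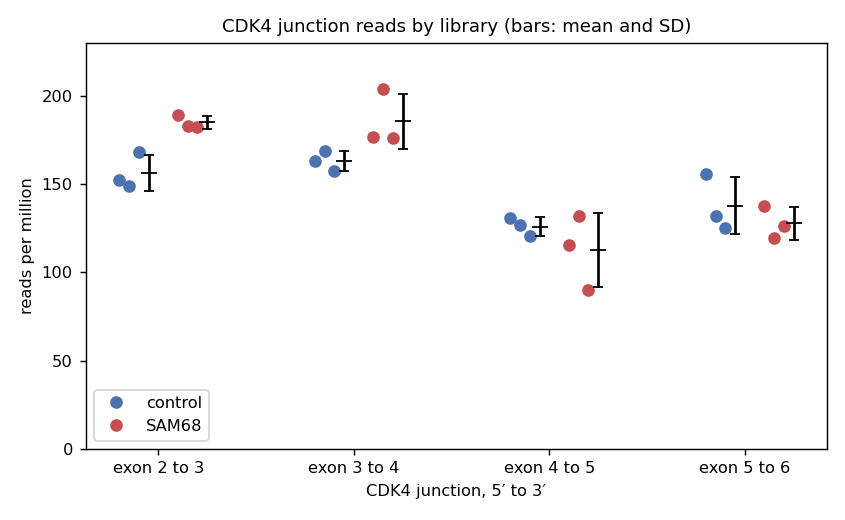
Rpm (junction reads per 1000000) over 4 consecutive junctions of CDK4, from 5′ to 3′, with 1 point per library and the mean and SD of 3 libraries per group. The SAM68 libraries lie above the control libraries at the exon 2 to 3 and exon 3 to 4 junctions and overlap with them at the exon 4 to 5 and exon 5 to 6 junctions.

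Exon 2 of CDK4 holds the start codon. Reads that joined exon 1 to exon 3 numbered 58, 45 and 47 in control and 89, 56 and 73 in SAM68. Inclusion of exon 2 was 95.7%, 96.9% and 96.9% in control and 94.8%, 96.2% and 94.9% in SAM68, a ∆PSI of -1.21 points (adjusted p = 0.699), or -0.63 points without division by effective length. The groups overlapped. This most-read event of CDK4 stood at 452, 459 and 505 rpm in control and at 524, 530 and 514 rpm in SAM68. Its log2 fold change of 0.15 (SE 0.053) was the only member value with an unadjusted p under 0.05, a level that 12.1% of all genes reached, and its adjusted p was 0.228.

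None of the 9 genes was called for the amount of junction reads (an adjusted p under 0.05 with at least 1 log2 unit of change), against 0.0493% of all 10147 genes tested. The log2 fold changes lay between -0.11 and 0.16, with a median of 0.12, where the median of all genes was -0.035. With the most-read event and all 6 libraries, CCND3 had the highest value (log2 fold change 0.16, SE 0.086, adjusted p = 0.483). It stood at 106, 126 and 104 rpm in control and at 125, 135 and 115 rpm in SAM68. Without 1 library at a time its log2 fold change ranged from 0.10 to 0.24. Without the first control library CCND3 (0.12) lay below CDC25C (0.20), and without the second control library CCND3 (0.24) lay below CCNE1 (0.31). CCND1 stood at 184 ± 4.42 rpm in control and 177 ± 13.5 rpm in SAM68 (SD of 3 libraries each). With the reads of all events of a gene summed, CDC25C was at 0.16, CDK4 at 0.075, CDC25A at 0.055 and CCND3 at 0.026. CDC25B was then at -0.038, CCNB1 at -0.039, CCND1 at -0.064, WEE1 at -0.097 and CCNE1 at -0.44 (adjusted p = 0.0991). The order and size of these values depended on the rows that stood for the gene and on the libraries used. Reads per gene did not overlap between the groups for 3 of the 9 genes (33.3%), against 16.8% of all genes. Levels were not compared between genes, because the rows that stand for them count different numbers of junctions.

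**Figure D5:**
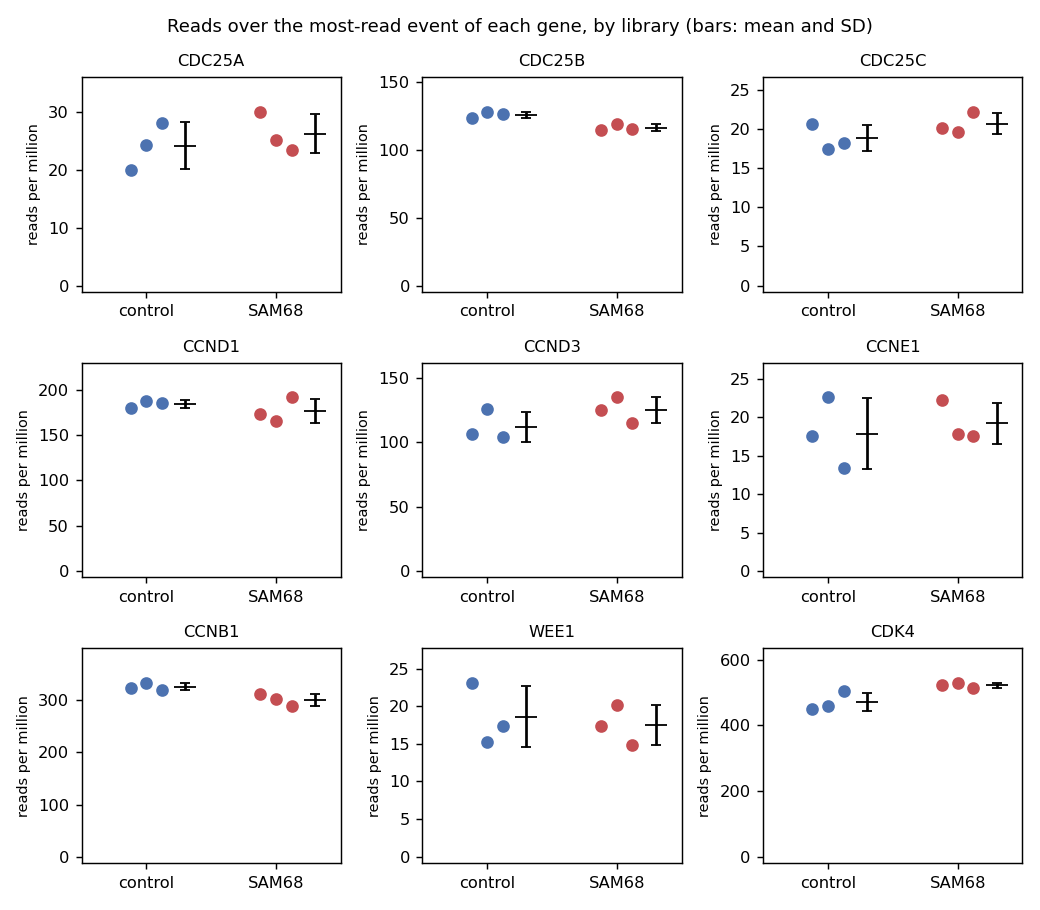
Rpm (junction reads per 1000000) over the most-read event of each of the 9 genes, with 1 point per library and the mean and SD of 3 libraries per group; each panel has its own axis. The groups do not overlap for CDC25B and CCNB1 (lower in SAM68) and CDK4 (higher in SAM68), against 16.8% of all genes without overlap, and no gene is called.

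The other genes of the cell cycle machinery were read from a list of 53 names, of which 44 were tested. None was called for its reads, and 7 (15.9%, against 12.1% of all genes) had an unadjusted p under 0.05, 3 with higher and 4 with lower values. Their median log2 fold change was 0.0020. The largest values in the list were those of BORA, an activator of the mitotic kinase Aurora A (-0.60, SE 0.27, adjusted p = 0.375), and of ATR, a DNA damage kinase (-0.53, SE 0.21, adjusted p = 0.265). FBXW7 (0.37), CCNE2 (0.36) and ATM (-0.33) followed.

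The same 44 genes had 334 tested events. None was called, and 25 (7.49%, against 5.95% of all events) had an unadjusted p under 0.05. The smallest p was that of an exon of FBXW11, a subunit of the ligase that marks CDC25A and WEE1 for degradation, with PSI of 43.8% ± 2.39 in control and 62.1% ± 1.14 in SAM68 (SD of 3 libraries each). Its adjusted p was 0.230. An exon of YWHAH, a 14-3-3 protein of the family that binds phosphorylated CDC25C, had PSI of 43.2% ± 8.73 and 88.6% ± 12.7 (SD of 3 libraries each), with an adjusted p of 0.300. It rested on few reads, with 14, 18 and 12 inclusion and 14, 9 and 7 skipping reads in control and 12, 20 and 19 inclusion and 2, 1 and 0 skipping reads in SAM68. A pair of exons of SKP2, an F-box protein that targets the CDK inhibitor p27, had a ∆PSI of -15.8 points (adjusted p = 0.147).

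SAM68 binds A/U-rich RNA, and the motifs TAAA and TTAA were counted on the transcribed strand of the GRCh38 sequence in 250 nt on each side of every alternative exon. The motifs can overlap each other, as in TTAAA, and were then both counted. TTAA reads the same on both strands, whereas TAAA on the other strand (TTTA here) was counted apart. At least 1 motif lay beside 30 of the 36 member exons (83.3%), against 88.0% of all 38788 tested exons. The windows of CDC25C exon 3 held 5 motifs, a number that 57.1% of all exons reached, and 2 copies of TTTA. Exon 3 itself held none, and exons with at least 1 inside made up 27.8% of the members and 40.1% of all exons. These counts describe letters and not binding.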

How the data were processed

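The sources were 5 tables of alternative splicing events in NCI-H1975 cells. The authors sequenced paired-end reads on an Illumina NovaSeq, filtered and trimmed them, aligned them to GRCh38 with hisat2 and ran rMATS. The submitters' processing notes name CASAVA 1.4, fastp 0.20.0 and HISAT2 2.1.0. The deposited tables hold lists of raw junction read counts per group, not normalized, with effective lengths and inclusion levels. They also hold the p-value, the FDR and the difference in levels of the authors' own test, which were not used. The lists carry no replicate numbers. Their group was read from the plots of PKM in the study, and libraries are named by their place in the list. In the A3SS table, 275 events had lists with regrouped digits, of which 163 were recovered (1 of a member, CCNB1) and 112 left out. In a further 679 events the digits also allowed another division, and the lists were used as printed.

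PSI was the inclusion count over its effective length, over the sum of both forms so divided. For MXE it refers to the exon nearer the 5′ end. Events that reached 10 reads on average entered a quasi-binomial model with the dispersion moderated within each type (squeezeVar, limma 3.58.1, R 4.3.3) and never below 1. P-values of the F test were adjusted per type (Benjamini-Hochberg). The prior degrees of freedom were infinite, which gave each type a common dispersion (SE 2.30, MXE 2.53). Each gene was represented by its most-read event, and log2(rpm + 0.5) was tested with limma (eBayes with trend), on which scale fold changes of low genes are understated. Rpm are reads per 1000000 of these reads. Scripts were tested on simulated data. Exact permutation tests were two-sided. P-values per gene and of permutation tests rest on the spread between 3 libraries per group, described by the authors as biological replicates. Those of the event test rest on the dispersion common to the type, not on the spread of the event's own libraries. Only counting error is covered by Wilson intervals and by the limit of 3 reads used where none was seen.

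Exon numbers are those of the canonical transcripts of GENCODE 44. Events described in full had an unadjusted p under 0.05 or an absolute ∆PSI of at least 10 points, or were the most-read event of a member. Other member rows were named after their values were seen. Of the listed cell cycle genes, up to 5 with the largest fold change and up to 5 events with the smallest p were eligible. The members and lists were chosen with earlier results of these data known.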

Additional observations from a re-analysis of the deposited data

How the results depend on the processing

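The number of called member events, 1, became 0 with unmoderated dispersions and when logit PSI was fitted with limma, which called 2 and 3 of all 66396 events against 62 in the test reported. It became 2 with a likelihood ratio test on pooled counts, which called 1354 of all events, and 2 with a ∆PSI limit of 5 points, which called 106. Leaving out 1 library at a time gave 0 to 1 called member events. For CDC25C exon 3, the adjusted p was 0.692 with unmoderated dispersions and 0.896 with limma on the logit. ∆PSI is not estimated by these fits and was 25.9 points by definition. Without 1 library it was 23.0 to 31.6 points. The event kept its call with other minimums of reads and with all types adjusted together. It also kept it without division by length (17.96 points) and with rows that share an exon summed. Lengths do not enter the test, and exon 3 has a single skipped exon row, so that these settings left its tested counts unchanged. No member gene was called under any alternative for reads per gene. The sign of the log2 fold change turned for CDC25A without control library 1, for CCNE1 without control library 3 and with all events summed (-0.44), and for WEE1 without control library 1 or SAM68 library 3. Over the fits without 1 library it ranged from -0.0052 to 0.24 for CDC25A, from -0.060 to 0.31 for CCNE1 and from -0.20 to 0.086 for WEE1. With 100 nt of intron on each side, 26 member exons had a motif in the exon or the windows, against 30 with 250 nt. The causes were not tested. No paired analysis was possible because the lists of counts carry no replicate numbers. Depth limits the CDC25C and CCNE1 rows, with 78 to 101 reads per library for CDC25C exon 3, 8 to 24 for its exon 5, and as few as 4 in a CCNE1 row.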
